A study of Brassica napus with 24 samples.

Results

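The genes described here are those of *Brassica napus* leaves whose transcript level under water deficit (WD) lay on opposite sides of the control level in the 2 final harvests, t2_25 (severe deficit) and t2_50 (mild deficit). They were chosen by CPM (read pairs on a gene divided by all pairs on genes of the library, times 1000000) in the 12 libraries of those harvests. The log2 ratio of the WD mean over the control mean, each plus 0.5 CPM, had to be at least 0.6 in absolute value in both harvests and of opposite sign. The 3 WD libraries also had to lie entirely above or entirely below the 3 control libraries in both harvests. Of 101040 annotated genes, 51079 had a mean of at least 1 CPM in some group, and 246 of these (0.482%) met the rule. The 200 with the largest difference between the 2 ratios were kept. In 86 of them, called t2_25-high genes below, WD lay above control at t2_25 and below control at t2_50. In the other 114, called t2_50-high genes, WD lay below control at t2_25 and above it at t2_50. Since these ratios chose the genes, all values of the 2 final harvests are given as a description, without a test.

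Wild-type oilseed rape plants of the cultivar Trezzor were grown in a greenhouse at 80% of the field capacity (FC) of the soil for 30 d, and mRNA was then sequenced from blades of leaves that had grown during the shortage. WD plants received no water until all pots fell under 50% FC (t1_50, 5 d) and then reached 25% FC (t1_25, 11 d), or were afterwards held at 50% FC until 18 d (t2_50) or at 25% FC until 20 d (t2_25). Control plants stayed at 80% FC and were sampled beside them at each harvest, which gives 8 groups of 3 libraries. A replicate pooled a pair of plants, though no source used here says so of the t2_50 plants. The day of t1_25 comes from the published timeline, because the labels give these libraries the harvest date of t1_50. Soil water content, the length of the deficit, the harvest day and leaf age all differ between t2_25 and t2_50 and cannot be told apart.

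A drying soil lowers the water status of leaves, and plants close their stomata, largely through abscisic acid, and slow the expansion of new leaves. With a longer or deeper deficit, leaves also remodel cell walls and the waxy cuticle, mobilise starch and storage proteins, and shift defence and transport functions. Many of these responses are known to depend on how severe the deficit is and how long it lasts.

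Gene counts per library ranged between 13263953 and 31112368 pairs, with a median of 15710704. One library stood apart from its group: the third replicate of WD at t2_50 differed from its replicates by 0.850 to 0.902 on the log2 scale (root mean square over genes), against 0.411 to 0.547 for the 10 other replicate pairs of the final harvests. Without it, 623 genes met the rule, 187 of the 200 among them. The tissue label could hardly be checked with the gene names used here, since the leaf markers rubisco small subunit and carbonic anhydrase and the root and seed markers were not annotated. The 3 genes annotated as chlorophyll a/b binding proteins of the light-harvesting complexes summed to between 20.4 and 148 CPM in the 24 libraries.

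Opposite directions were rare among genes whose WD libraries stood clear of control in both harvests. WD and control libraries did not overlap at t2_25 in 25391 of the 51079 genes (49.7%) and at t2_50 in 16168 (31.7%), and the rule required this of every chosen gene. Of the 5130 genes that did not overlap in either harvest and reached 0.6 in both, 4884 (95.2%) had ratios of the same sign and 246 (4.80%) of opposite sign. The t2_25-high genes had a median log2 ratio of 1.04 at t2_25 (lowest 0.62, highest 2.29) and −0.91 at t2_50 (lowest −2.53, highest −0.60). The t2_50-high genes had a median of −1.11 at t2_25 (lowest −3.64, highest −0.60) and 0.98 at t2_50 (lowest 0.62, highest 3.37). The larger of the 2 ratios in absolute value was that of t2_25 in 56 of the 86 and in 69 of the 114 genes. The limits of the rule cut through a continuous range. The last 3 genes kept had differences of 1.58, 1.59 and 1.59 in absolute value, and the first 3 past the limit of 200 had 1.57, 1.57 and 1.56. The smallest ratio in absolute value was 0.60, 0.60 and 0.61 in the 3 genes nearest the threshold within it, and 0.599, 0.597 and 0.595 in the 3 nearest outside it.

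**Figure D1:**
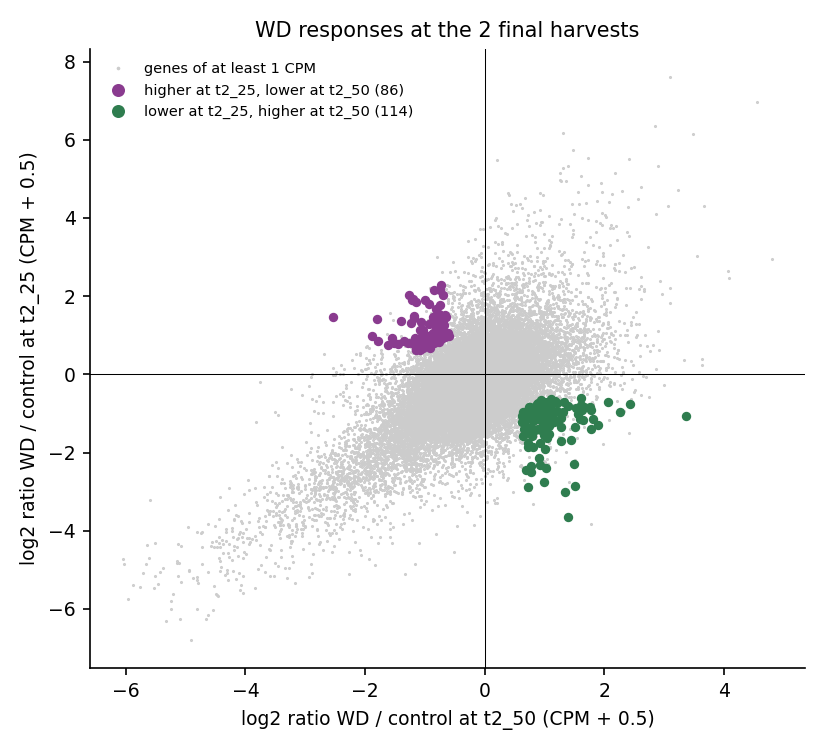
Each point is a gene of at least 1 CPM in some group, with the log2 ratio of WD over control at t2_50 on the horizontal axis and at t2_25 on the vertical axis (group means of CPM plus 0.5). Grey points are all 51079 genes, purple points the 86 t2_25-high genes and green points the 114 t2_50-high genes, and most genes far from the origin lie where both ratios have the same sign.

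The median gene itself was lower under WD in both harvests by CPM, by 0.32 at t2_25 and by 0.22 at t2_50 on the log2 scale. Scaling the libraries by TMM (edgeR's trimmed mean of M-values) moved the ratios by 0.29 at t2_25 and by 0.23 at t2_50. All 200 genes kept opposite signs under TMM, but only 128 of them, 48 t2_25-high and 80 t2_50-high, still met the whole rule. The medians under TMM were 1.33 at t2_25 and −0.70 at t2_50 in t2_25-high genes, and −0.87 at t2_25 and 1.23 at t2_50 in t2_50-high genes. In bulk leaf RNA, fewer cells of a type and less RNA per cell cannot be told apart, here or in any value below.

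Most of the contrast between harvests lay in the WD plants and not in their controls. In t2_25-high genes the log2 ratio of t2_25 to t2_50 had a median of 1.81 within WD libraries and of −0.27 within control libraries. The WD libraries held the larger part of the difference in 82 of the 86 genes, with a median part of 86.8%. The 3 WD libraries of t2_25 did not overlap those of t2_50 in 84 genes, against 27.2% of all genes of at least 1 CPM, and the control libraries of the 2 harvests did not overlap in 26, against 14.5%. In t2_50-high genes the same ratio had a median of −2.00 within WD libraries and of 0.24 within control libraries. Here the WD libraries held the larger part in 113 of the 114 genes, with a median part of 89.3%. WD libraries of t2_25 lay clear of those of t2_50 in each of the 114 genes, and the control libraries did so in 33. The split between WD and control libraries uses the values that chose the genes and is a description.

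**Figure D2:**
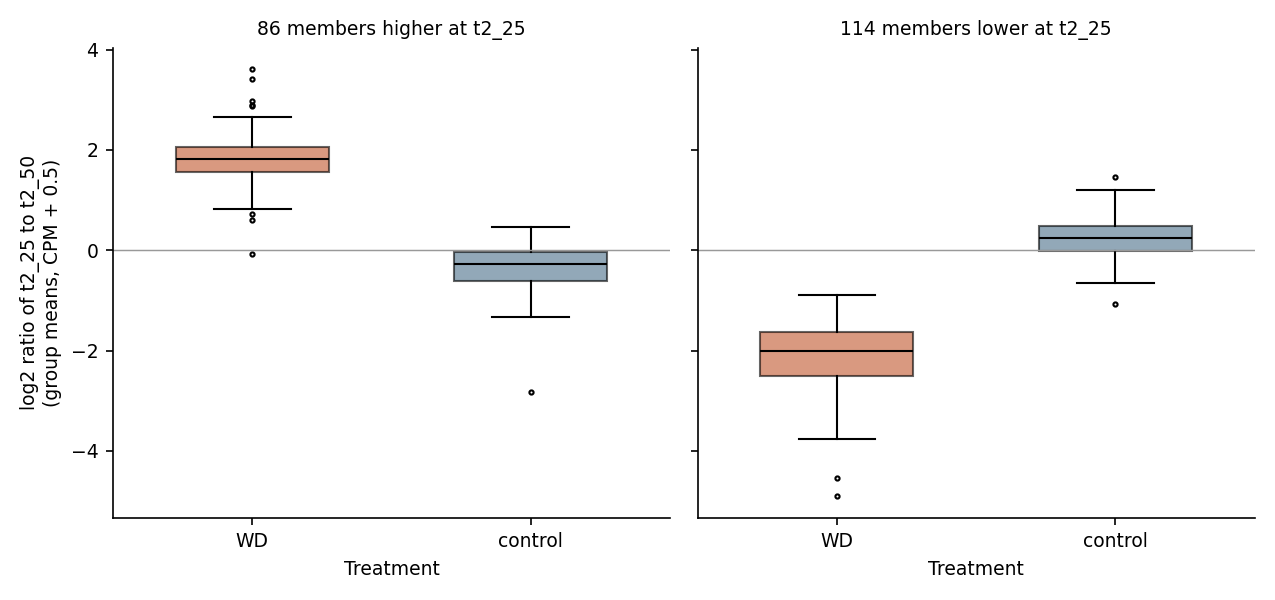
Box plots of the log2 ratio of the t2_25 mean over the t2_50 mean (CPM plus 0.5) within WD libraries and within control libraries, on the left for the 86 t2_25-high genes and on the right for the 114 t2_50-high genes. Boxes span the quartiles with the median as a line, whiskers reach the last gene within 1.5 times the box, and points are genes beyond; the WD boxes sit at medians of 1.81 and −2.00, and the control boxes near 0 at −0.27 and 0.24.

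Over all 8 groups, the WD plants of the final harvests held the extremes. WD at t2_25 had the highest group mean in 79 of the 86 t2_25-high genes, and in 52 of the 86 its 3 libraries lay above all 21 others, as they did in 1.67% of all genes of at least 1 CPM. WD at t2_50 had the lowest group mean in 48 of the 86, and its 3 libraries lay below all others in 4, against 0.256% of all genes. In t2_50-high genes, WD at t2_25 had the lowest group mean in 105 of 114 and lay below all other libraries in 67, against 3.9% of all genes. WD at t2_50 had the highest mean in 79 of the 114 and lay above all other libraries in 10, against 0.133% of all genes, while control at t1_50 had the highest mean in 19. These counts rest in part on the values that chose the genes.

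Centred on the mean of the 24 libraries, the median t2_25-high gene stood at 1.18 ± 0.011 in WD and 0.05 ± 0.149 in control at t2_25, and at −0.60 ± 0.053 in WD and 0.32 ± 0.036 in control at t2_50 (log2 of CPM plus 0.5, SD, n = 3 libraries each). In t1_50 leaves it stood at −0.34 ± 0.261 in WD and −0.29 ± 0.085 in control, and in t1_25 leaves at −0.11 ± 0.402 in WD and −0.19 ± 0.147 in control. The median t2_50-high gene stood at −1.20 ± 0.142 in WD and −0.03 ± 0.140 in control at t2_25, and at 0.74 ± 0.160 in WD and −0.23 ± 0.062 in control at t2_50. The WD and control libraries of the first 2 harvests overlapped in both classes, with 0.31 ± 0.290 in WD and 0.25 ± 0.061 in control at t1_50 and 0.19 ± 0.257 in WD and 0.07 ± 0.155 in control at t1_25 for t2_50-high genes. The choice of the genes, by lack of overlap, favoured a small spread in the final harvests. The SDs of the final harvests can therefore not be compared with those of the first 2. Summed over the 86 t2_25-high genes, CPM was 5587, 6592 and 6857 in WD and 1922, 2280 and 2402 in control at t2_25, each in rising order. At t2_50 the sum over these genes was 1256, 1427 and 1728 CPM in WD, below the 2738, 2753 and 2918 CPM in control. Over the 114 t2_50-high genes, the sum was 925, 1050 and 1224 CPM in WD and 2544, 2985 and 3338 CPM in control at t2_25. At t2_50 it was 4745, 4782 and 5756 CPM in WD and 2620, 2660 and 2855 CPM in control.

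**Figure D3:**
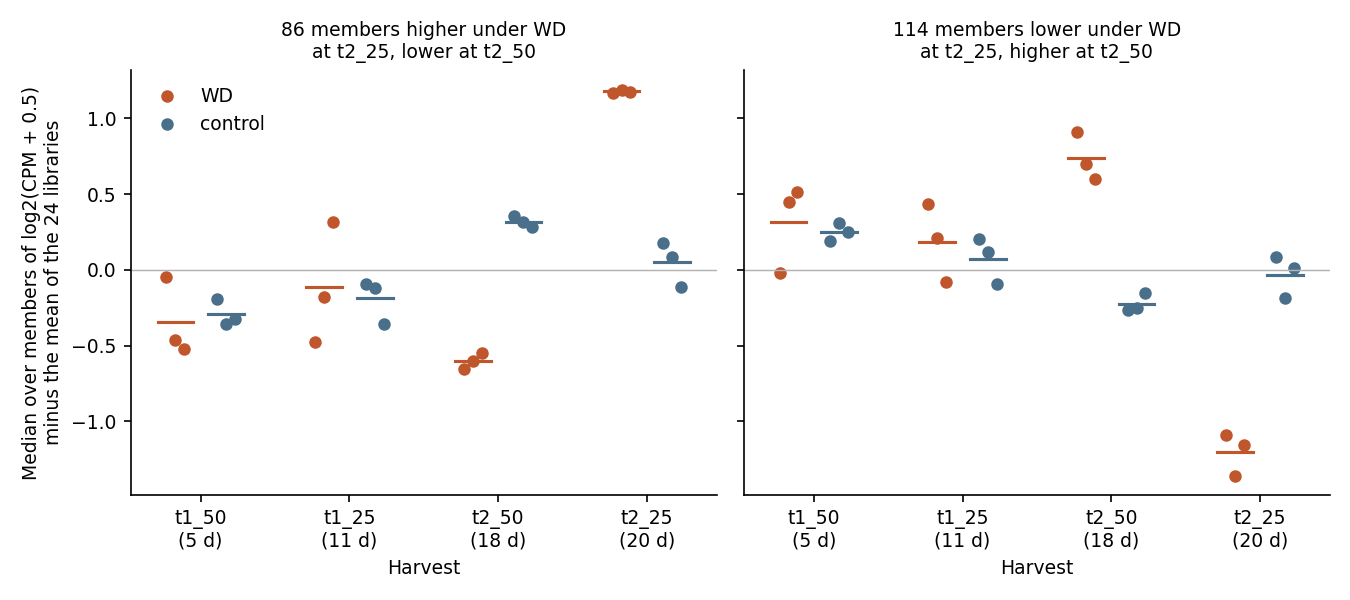
For each library, the median over genes of log2(CPM plus 0.5) minus the gene's mean over 24 libraries, by harvest in order of time, with the 86 t2_25-high genes on the left and the 114 t2_50-high genes on the right. Points are libraries (WD orange, control blue) and short lines their means; WD and control overlap at t1_50 and t1_25 and separate at t2_50 and t2_25, where the left panel has WD at −0.60 and 1.18 and the right panel has WD at 0.74 and −1.20.

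The chosen genes ranged widely in abundance. The mean over the 12 libraries of the final harvests had a median of 6.44 CPM in t2_25-high genes (0.304 to 704 CPM) and of 9.52 CPM in t2_50-high genes (0.443 to 404 CPM). It was under 5 CPM in 37 of the 86 and in 36 of the 114 genes, and at least 100 CPM in 7 and 4 genes. Gene identifiers place 93 of the 200 in the A subgenome, derived from the *Brassica rapa* ancestor, and 106 in the C subgenome, derived from *Brassica oleracea*, or 46.5% and 53% against 48.4% and 51.4% of all genes of at least 1 CPM. Chromosome C03 held 24 of them (12%, against 7.67% of those genes) and A05 held 2 (1%, against 4.24%). These chromosomes were singled out after the shares were seen, and no share was tested. By gene number, 3 pairs were immediate neighbours, all of 1 class: BnaC06g01420D with BnaC06g01430D and BnaC06g25840D with BnaC06g25850D among t2_50-high genes, and BnaC07g43290D with BnaC07g43300D among t2_25-high genes. Of the pairs further apart, up to 50 in gene number, BnaA01g35060D with BnaA01g35090D were both t2_50-high and BnaA02g09600D with BnaA02g09640D both t2_25-high. BnaC04g41490D (t2_25-high) and BnaC04g41540D (t2_50-high) were of opposite classes. These pairs were singled out after their values were seen. Pairs on the opposite strand exceeded 10% of a gene's total in 3 of the 200 genes and in 839 of all 51079.

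A description was at hand for 16 of the 200 genes, in the portion read of the study's table of differentially expressed genes, which the study chose on these same samples. 8 further genes of the 200 are listed there without a description, and none is among the 114 ion transporter genes that the study tabulated. The described genes are named below by function, together with the 2 genes without a description in each class that had the largest difference between harvests among genes reaching a group mean of 5 CPM. All values of single genes are CPM of the replicates numbered 1, 2 and 3.

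Of the 16 described genes, 9 were t2_50-high and are given first. BnaA08g11440D encodes a fatty acyl-CoA reductase, an enzyme family that makes the fatty alcohols of waxes and suberin. It had 2.94, 2.12 and 2.18 CPM in WD and 15.2, 27.8 and 18.7 CPM in control at t2_25, a log2 ratio of −2.85. At t2_50 it had 27.4, 34.4 and 17.5 CPM in WD and 12.3, 7.26 and 7.31 CPM in control, a log2 ratio of 1.51. Both the WD and the control levels of this gene moved between harvests, in opposite directions. BnaC03g22750D encodes an expansin, a protein that loosens cell walls in growing tissue. It had 3.02, 1.09 and 1.42 CPM in WD and 7.07, 3.67 and 5.04 CPM in control at t2_25 (log2 ratio −1.30), and 32.6, 22.7 and 21.4 CPM in WD and 6.04, 6.0 and 7.37 CPM in control at t2_50 (log2 ratio 1.90). Its control level was nearly the same in both harvests, so the contrast was one of WD leaves.

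BnaC08g22920D encodes a plant lipid transfer protein, one of the small secreted proteins that bind lipids and are abundant in the epidermis. It had 36.2, 32.9 and 32.2 CPM in WD and 75.8, 76.0 and 82.8 CPM in control at t2_25, and 118, 146 and 89.1 CPM in WD and 42.9, 57.1 and 64.9 CPM in control at t2_50. BnaC03g74010D encodes a nucleotide sugar epimerase, of a family that interconverts the sugar donors of cell wall polysaccharides. It had 34.2, 22.4 and 26.2 CPM in WD and 54.4, 65.6 and 60.5 CPM in control at t2_25, and 95.3, 80.4 and 54.3 CPM in WD and 45.2, 42.3 and 48.1 CPM in control at t2_50. In both genes the lowest WD library of t2_50 was the third replicate, the one that stood apart. The log2 ratios were −1.20 at t2_25 and 1.09 at t2_50 for the lipid transfer protein gene, and −1.11 and 0.76 for the epimerase gene in the same order.

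BnaA05g36120D belongs to glycosyl hydrolase family 13, which includes the starch-degrading alpha-amylases, and had 2.65, 2.43 and 3.90 CPM in WD and 7.78, 8.57 and 6.25 CPM in control at t2_25, against a mean of 10.8 ± 0.654 in WD and 6.66 ± 1.44 in control at t2_50 (SD, n = 3). BnaC08g02750D encodes a leucine-rich repeat protein, a repeat found in receptors and other recognition proteins. It had 12.4, 4.73 and 7.64 CPM in WD and 66.2, 32.9 and 47.1 CPM in control at t2_25, and 78.0, 57.8 and 76.4 CPM in WD and 35.1, 45.5 and 42.1 CPM in control at t2_50. WD leaves of t2_25 thus held a lower level of it than any control leaf of either final harvest, and those of t2_50 a higher level than the controls of the same harvest. BnaA07g35640D encodes a protein with kelch repeats, a propeller fold often found in plant F-box proteins. It had 1.91, 2.55 and 2.68 CPM in WD and 4.53, 3.80 and 4.83 CPM in control at t2_25, and 13.1, 30.4 and 13 CPM in WD and 3.13, 3.70 and 2.49 CPM in control at t2_50. Its log2 ratio at t2_50 was 2.42, the largest of the described genes at that harvest, and −0.76 at t2_25.

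BnaC03g32530D belongs to the Band 7 or stomatin family of membrane scaffold proteins, and BnaC06g02060D carries a RanBP2-type zinc finger, a domain that binds RNA or proteins. The stomatin gene averaged 6.22 ± 0.414 CPM in WD and 15.2 ± 4.18 CPM in control at t2_25, and 26.0 ± 3.57 CPM in WD and 12.1 ± 2.65 CPM in control at t2_50. The zinc finger gene averaged 4.63 ± 1.10 CPM in WD and 10.0 ± 1.0 CPM in control at t2_25, and 17.7 ± 1.39 CPM in WD and 8.66 ± 1.88 CPM in control at t2_50 (SD, n = 3 each).

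The other 7 described genes were t2_25-high. BnaC03g77680D is annotated as an acid phosphatase of the vegetative storage protein type, proteins that in Arabidopsis accumulate in leaves as a nitrogen store and respond to jasmonate. It was the most abundant described gene, with 1310, 1100 and 1263 CPM in WD and 592, 363 and 372 CPM in control at t2_25, and 353, 401 and 539 CPM in WD and 544, 925 and 684 CPM in control at t2_50. The highest WD library and the lowest control library of t2_50 lay close together, at 539 and 544 CPM, and the highest of these WD values was that of the third replicate. BnaA10g21850D belongs to the multi antimicrobial extrusion family, membrane exporters of organic compounds. It had 19.5, 16.3 and 23.9 CPM in WD and 7.87, 10.6 and 7.74 CPM in control at t2_25, and 5.4, 8.58 and 9.87 CPM in WD and 15.1, 13.6 and 14.1 CPM in control at t2_50. Controls of t1_50 held more of this transcript than any leaf of the final harvests, with 42.9, 45.6 and 37.9 CPM.

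BnaA07g22910D carries the TIR and NB-ARC domains of intracellular immune receptors, and was near the detection limit, with 1.03, 1.58 and 1.42 CPM in WD and 0.161, 0.773 and 0.426 CPM in control at t2_25. Between 14 and 28 pairs per library lay behind the WD values. At t2_50 it had 0.281, 0.473 and 0.178 CPM in WD and 1.07, 1.05 and 1.08 CPM in control. BnaCnng04920D carries a RING zinc finger, the domain of many ubiquitin ligases. It had 3.53, 4.43 and 1.57 CPM in WD and 1.12, 0.773 and 0.639 CPM in control at t2_25, and 0.210, 0.473 and 0.357 CPM in WD and 1.99, 0.907 and 1.35 CPM in control at t2_50. BnaA06g22540D carries a Phox/Bem1p domain, which joins proteins into signalling complexes. It had 10.1, 8.07 and 9.66 CPM in WD and 1.93, 2.38 and 2.06 CPM in control at t2_25, and 3.30, 1.36 and 0.535 CPM in WD and 4.48, 5.72 and 3.79 CPM in control at t2_50. WD leaves of t2_25 held more of it than any other leaf, and the control level at t2_25 was lower than at t2_50.

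BnaA04g22640D carries a DUF1313 domain, the domain of EARLY FLOWERING 4, which in Arabidopsis acts in the evening complex of the circadian clock. It had 4.93, 4.37 and 7.44 CPM in WD and 0.707, 1.10 and 0.426 CPM in control at t2_25, a log2 ratio of 2.29 and the largest of all t2_25-high genes. At t2_50 it had 0.281, 0.533 and 0.178 CPM in WD and 0.995, 0.767 and 0.867 CPM in control, where between 3 and 9 pairs per library lay behind the WD values and between 11 and 16 behind the control values. In the first 2 harvests it was at 0 in 7 of 12 libraries, which allows up to 0.226 CPM (3 pairs in the shallowest library, counting error only). The transcript was thus measured at a level above 2 CPM in WD leaves of t2_25 alone.

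The glycoside hydrolase family 1 gene BnaC04g49640D differed from the other described genes, since its contrast lay in the control leaves. The family includes beta-glucosidases and the myrosinases that cleave glucosinolates. It had 1.99, 0.668 and 2.12 CPM in WD and 0.161, 0.0644 and 0.0710 CPM in control at t2_25, and 2.67, 1.95 and 0.535 CPM in WD and 4.83, 2.79 and 3.63 CPM in control at t2_50. Between t2_25 and t2_50 the log2 ratio was −0.08 within WD and −2.83 within control. The t2_25 controls held 7 pairs in all, against 80 pairs in WD. These counts also chose the gene, so their ratio and its interval are a description and no test. The log2 ratio of the pooled pairs was 3.80 (95% exact binomial interval 2.69 to 5.16, for counting error only and not for the spread between replicates). That spread was wide in the first 2 harvests. At t1_25 the gene had 4.30, 25.2 and 0.637 CPM in WD and 5.38, 23.4 and 0 CPM in control. At t1_50 it had 7.31, 30.5 and 30.5 CPM in WD and 4.16, 14.5 and 6.74 CPM in control.

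**Figure D4:**
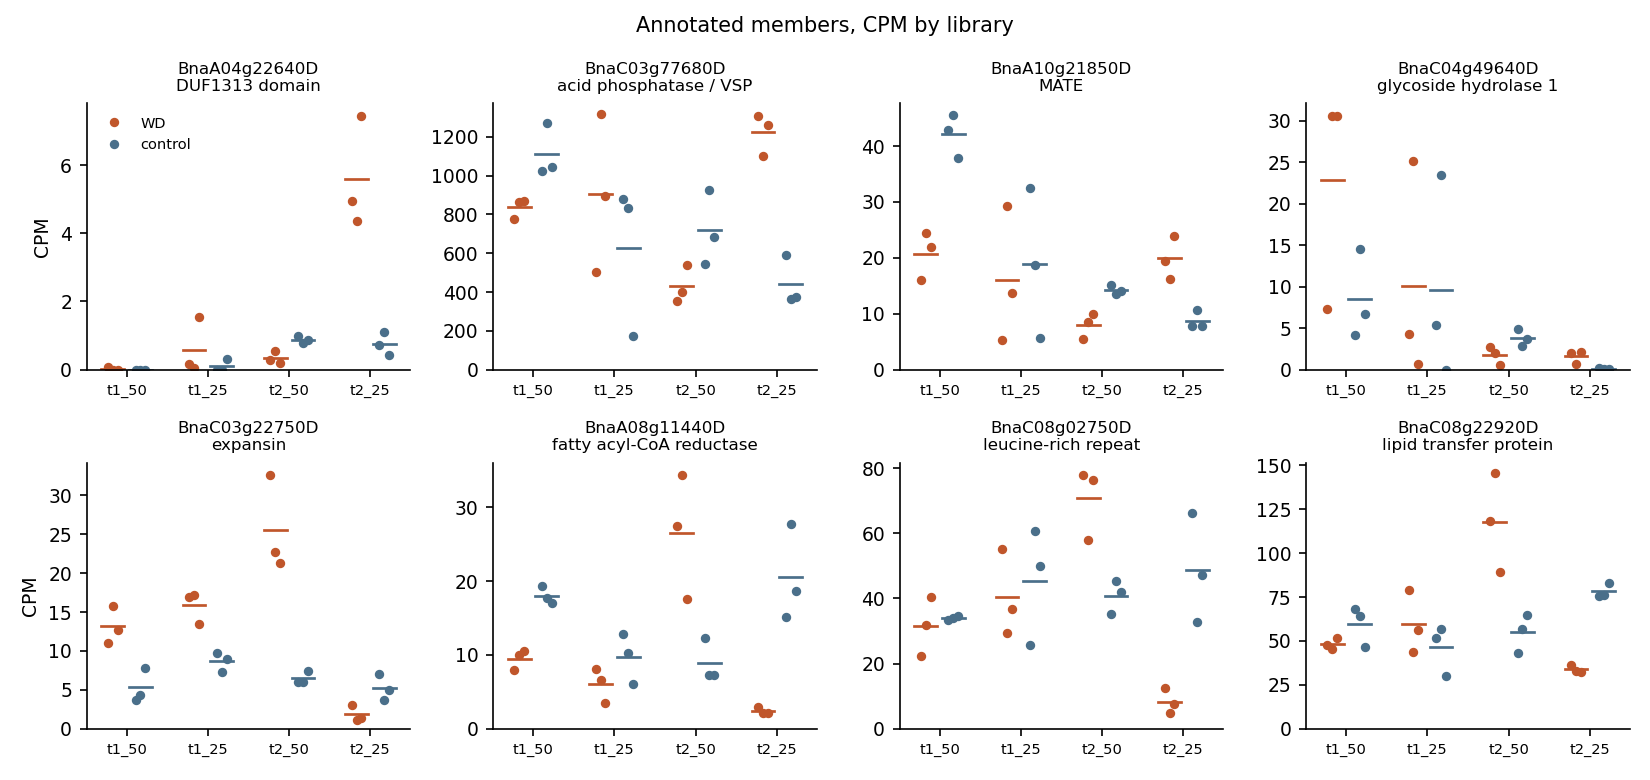
CPM by library for 8 of the described genes, with the harvests in order of time on each horizontal axis and a linear CPM axis that starts at 0 in each panel. Points are libraries (WD orange, control blue) and lines the group means; the upper row shows t2_25-high genes, among them BnaA04g22640D with WD at 4.37 to 7.44 CPM at t2_25, and the lower row t2_50-high genes, among them the expansin gene BnaC03g22750D with WD at 21.4 to 32.6 CPM at t2_50.

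Among the genes without a description, BnaA09g42760D was the more abundant of the t2_25-high pair. It had 411, 761 and 515 CPM in WD and 152, 120 and 138 CPM in control at t2_25, and 42.5, 31.0 and 82.4 CPM in WD and 125, 128 and 126 CPM in control at t2_50. Its controls were alike in both harvests, with a log2 ratio between them of 0.12, against 3.42 within WD. BnaA02g09370D had 21.2, 18.2 and 41.1 CPM in WD and 15.5, 7.09 and 5.82 CPM in control at t2_25, and 0.701, 2.96 and 1.55 CPM in WD and 13.4, 13.5 and 10.5 CPM in control at t2_50. Its ratio at t2_50, −2.53, was the lowest of all t2_25-high genes. The t2_50-high gene BnaC09g17820D had 0.147, 0.182 and 0.0506 CPM in WD and 10.4, 2.83 and 8.66 CPM in control at t2_25, and 20.5, 9.77 and 12.1 CPM in WD and 4.05, 6.21 and 4.98 CPM in control at t2_50. Only 6 pairs lay behind its 3 WD libraries of t2_25, against 490 in control. The log2 ratio of the pooled pairs was −6.07 (95% exact binomial interval −7.52 to −4.93, for counting error within these libraries only and not for the spread between replicates). These counts also chose the gene, so the interval is a description and no test. The ratio of CPM plus 0.5, which understates changes of low values, was −3.64. BnaC03g61740D had 0.221, 0 and 0.0506 CPM in WD and 0.675, 0.515 and 0.994 CPM in control at t2_25, and 19.8, 26.5 and 5.35 CPM in WD and 2.06, 0.209 and 1.35 CPM in control at t2_50. Its opposition rested mainly on t2_50, since at t2_25 only 4 pairs in WD stood against 43 in control, a log2 ratio of −3.14 (−5.08 to −1.68, for counting error only). This interval, too, comes from counts that chose the gene and is no test. The library at 0 allows up to 0.182 CPM.

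The portion read, whose genes the study chose on these samples, held 172 other expressed genes that shared a description with these 16. Of these, 92 overlapped control in at least 1 of the 2 harvests, 64 lay below control without overlap in both, 16 lay above in both and none went opposite ways. Over all genes of at least 1 CPM, 19.3% lay on the same side of control without overlap in both harvests and 1.37% on opposite sides. Of 82 leucine-rich repeat genes, 44 lay below in both, 2 above in both and 35 overlapped in a harvest, beside BnaC08g02750D. Of 47 RING zinc finger genes, 13 lay below in both, 4 above in both and 29 overlapped in a harvest, beside BnaCnng04920D. The other 2 expansin genes and the other 2 DUF1313 genes all overlapped in a harvest. These counts had no test, and a description covers 16 genes only, so that no function can be assigned to the 200 as a whole.

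Whether the chosen genes already responded in the first 2 harvests was tested in the 12 libraries of t1_50 and t1_25, which took no part in the choice. Of the 200, 197 passed the filter on low counts (83 of 86 t2_25-high and all 114 t2_50-high), among 51885 genes tested, while BnaA04g22640D, BnaA07g22910D and 1 gene without a description did not. At t1_50, none of the 197 differed between WD and control by edgeR's quasi-likelihood test with Benjamini-Hochberg adjustment over all genes, and 1 gene of all tested did (0.00193%). Before adjustment, p was at most 0.05 for 24 of the 197 (12.2%), against 7.24% of all genes, and DESeq2 called 2, against 0.451% of all genes. Split by class, the unadjusted count was 4 of 83 t2_25-high genes (4.82%; 4 higher and 0 lower under WD) and 20 of 114 t2_50-high genes (17.5%; 14 higher and 6 lower). The median log2 fold change was −0.04 in t2_25-high and −0.06 in t2_50-high genes, and 0.01 over all genes tested. WD and control did not overlap in 42 of the 197 genes (21.3%), against 19.4% of all genes. By class this was 12 of 83 t2_25-high genes (14.5%) and 30 of 114 t2_50-high genes (26.3%).

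At t1_25, none of the 197 was called, against 2.4% of all genes (1247 genes, 527 higher and 720 lower under WD). With all 24 libraries in the model, edgeR called 11 of the 200 and 6208 genes in all (11.3%). Before adjustment, p was at most 0.05 for 36 of the 197 (18.3%), against 22.1% of all genes, and DESeq2 called 9, against 8.74% of all genes. Split by class, the unadjusted count was 3 of 83 t2_25-high genes (3.61%) and 33 of 114 t2_50-high genes (28.9%). Both directions occurred, with 2 higher and 1 lower under WD in the t2_25-high genes and 21 higher and 12 lower in the t2_50-high genes. Without the replicate block edgeR called 3 of the 197 (5.40% of all genes), and with a replicate block within each harvest, added after seeing the data, 4 (3.08%). The median log2 fold change was 0.11 in t2_25-high genes, 0.09 in t2_50-high genes and −0.01 over all genes. WD and control did not overlap in 24 of the 197 genes (12.2%), against 18.2% of all genes. By class this was 3 of 83 t2_25-high genes (3.61%) and 21 of 114 t2_50-high genes (18.4%). Leaving out the first control replicate of t1_25, edgeR called 12 of the 197 and 7006 genes in all (13.5%). Per replicate number, the median t2_25-high gene was at −0.30, −0.01 and 0.64 in WD against control at t1_25 (log2 ratio), so that the replicates did not agree in sign. The same medians were 0.98, 1.06 and 1.26 at t2_25. There the choice of the genes fixed a positive sign in every replicate, so the agreement of replicates cannot be compared between these harvests.

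The WD response at t1_25 was also compared with that at t1_50, the harvests at which the pots first reached 25% FC and fell under 50% FC. The difference was past the threshold in none of the 197 and in 0 of all genes tested (0.0%) by edgeR. The unadjusted p was at most 0.05 in 18 of the 197 (9.14%), against 7.98% of all genes, and DESeq2 called none of the 197 and 167 genes in all (0.322%). The median difference was 0.07 in t2_25-high and 0.03 in t2_50-high genes, and −0.02 over all genes. Leaving out the first control replicate of t1_25, 2 of the 197 and 1643 genes in all (3.18%) passed.

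**Figure D5:**
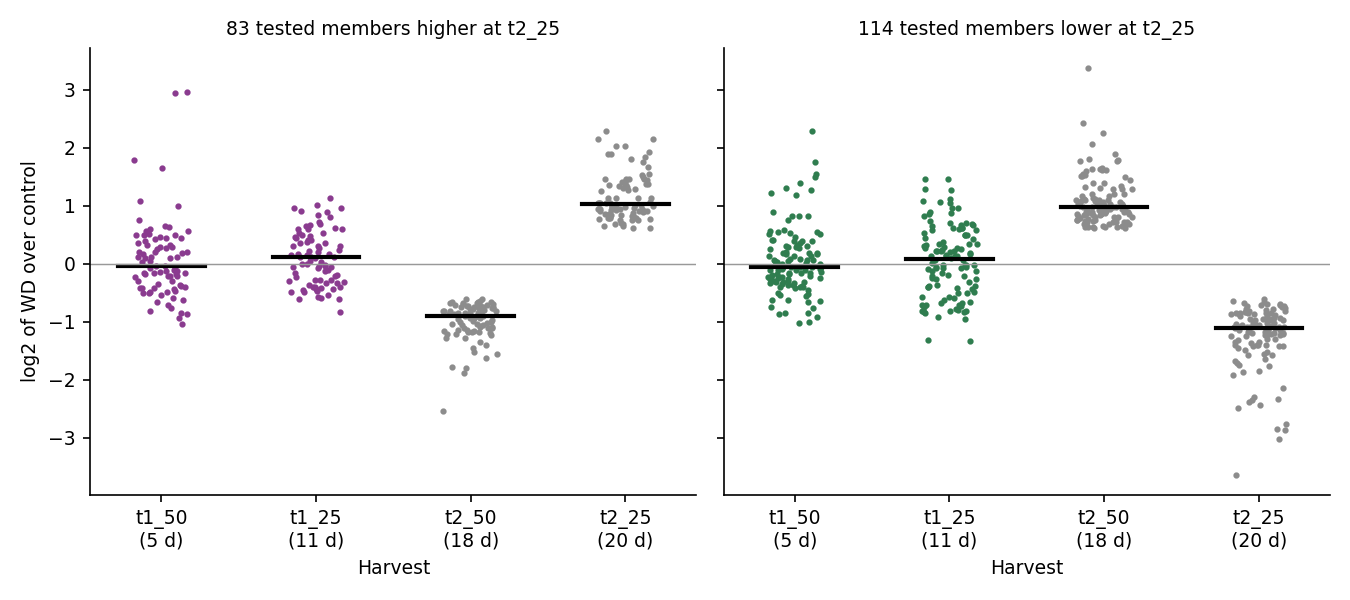
Log2 of WD over control for each chosen gene at the 4 harvests in order of time, on the left for the 83 tested t2_25-high genes and on the right for the 114 t2_50-high genes. Coloured points at t1_50 and t1_25 are edgeR log2 fold changes, grey points at t2_50 and t2_25 are the log2 ratios of CPM plus 0.5 that chose the genes, and black lines are medians; the t1 medians lie between −0.06 and 0.11, with points on both sides of 0.

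Among the named genes, the expansin gene BnaC03g22750D had the smallest adjusted p at t1_50. It had 11, 15.8 and 12.7 CPM in WD and 3.76, 4.30 and 7.87 CPM in control at t1_50, and 17, 17.2 and 13.5 CPM in WD and 9.73, 7.27 and 9.01 CPM in control at t1_25. WD thus lay above control without overlap in 3 harvests, t1_50, t1_25 and t2_50, and below it at t2_25. The log2 fold change was 1.32 ± 0.262 at t1_50 (SE, edgeR adjusted p = 0.279) and 0.86 ± 0.255 at t1_25 (edgeR adjusted p = 0.0918), and neither passed the threshold. The zinc finger gene BnaC06g02060D had the smallest adjusted p of the 197 at t1_25, with 15.4, 15.4 and 10.8 CPM in WD and 9.51, 8.62 and 6.99 CPM in control (log2 fold change 0.71 ± 0.163 SE, edgeR adjusted p = 0.053). Its WD level was above control at t1_25 and t2_50 and below it at t2_25. The fatty acyl-CoA reductase gene BnaA08g11440D had 7.95, 9.96 and 10.5 CPM in WD and 19.4, 17.7 and 17 CPM in control at t1_50, a log2 fold change of −0.92 ± 0.257 (SE, edgeR adjusted p = 0.494). WD lay below control without overlap at t1_50 and t2_25 and above it at t2_50 for this gene.

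Well-watered leaves also changed between the first harvests. Between the controls of t1_25 and t1_50, edgeR called 3 of the 197 genes, against 3.07% of all genes (1595), 2 of them higher (2.32% of all genes) and 1 lower (0.752%) at t1_25. These were the t2_25-high genes BnaC02g43120D, higher at t1_25 by a log2 fold change of 2.13, and BnaC03g49500D, higher by 1.90, and the t2_50-high gene BnaA09g33760D, at −1.25, with edgeR adjusted p of 0.042, 0.0449 and 0.0462. They are named because the test called them, and have no description here. The median log2 fold change was 0.02 in t2_25-high genes, −0.39 in t2_50-high genes and 0.02 over all genes. Of the t2_50-high genes, 82 of 114 were lower at t1_25, against 41 of 83 t2_25-high genes and 25235 of all 51885 genes tested. The groups did not overlap in 48 of the 197 (24.4%), against 24.9% of all genes. DESeq2 called 20 of the 197, against 10.6% of all genes. Leaving out the first control replicate of t1_25 gave 31 called genes of the 197, against 18.1% of all genes, and leaving out any other library of the first 2 harvests gave 0 or 1.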

How the data were processed

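Stranded poly(A) libraries of 24 leaf samples, 3 in each of 8 groups, were used. The authors trimmed the reads with Trimmomatic, filtered out rRNA reads by sortMeRNA, and used STAR both to align and to count. The deposited values are a raw count of pairs per gene for each strand setting, without normalization or filter. The reverse-strand column was used; the opposite strand held 0.301 to 0.479% of pairs on genes. Pairs placed at several loci, 7.77 to 9.45% per library, are listed apart and were counted on no gene, so near-identical copies of the A and C subgenomes lose reads.

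The genes and lists were chosen with earlier results of these data known. CPM was computed from gene totals, and the choice was made as the report states. For the first 2 harvests, genes with at least 0.6 CPM in at least 3 of the 12 libraries were tested with edgeR 4.0.16 (limma 3.58.1, R 4.3.3): TMM scaling, a quasi-likelihood fit of the 4 groups with a replicate block (a factor that the study's model also holds), and Benjamini-Hochberg adjustment with a threshold of 0.05. Standard errors were computed back from the F statistic. The t2 libraries were left out of this fit, because they chose the genes. The alternatives were no block, DESeq2 1.42.0, its size factors, no filter on low counts, all 24 libraries, counts without strand and each library left out, and for the choice of genes TMM, other pseudocounts and thresholds. A block within each harvest and ratios centred on the median gene were added after seeing the data.

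Genes named are those described in the portion read of the study's table of differentially expressed genes, 2 others of each class with the largest difference between the final harvests among genes reaching 5 CPM in a group, and those that a test called. Of 200 identifiers, 10 matched the RefSeq gene table, which gave no description. No gene coordinates or sequences are given, because no genome of the build used for counting was at hand.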

Additional observations from a re-analysis of the deposited data

Results flagged for a closer look

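All 200 genes had every WD library on one side of every control library at t2_25 and on the other side at t2_50 by CPM. The difference in direction was not tested, because the choice of the genes fixes it. Under TMM, 19 of the t2_25-high genes overlapped control at t2_50 and 18 of the t2_50-high genes at t2_25. With 3 libraries a group, no search for single outlying values was made within groups.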

How the results depend on the processing

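The choice of genes moved with its settings. It took 246 genes as stated, 80 with a pseudocount of 5, 45 with ratios of at least 1, and between 248 and 623 with each library of the final harvests left out, which kept between 181 and 195 of the 200; 623 came without the third replicate of WD at t2_50. By TMM it took 254 genes and with ratios centred on the median gene 187. In the tests of the first 2 harvests, DESeq2 called 2 of the chosen genes at t1_50 (0.451% of all genes), 9 at t1_25 (8.74%) and 20 between controls (10.6%), against 0, 0 and 3 by edgeR. With all 24 libraries in the model, edgeR called 11 at t1_25 (11.3% of all genes) and 17 between controls (11%), and with no filter on low counts 3 (3.84%) and 7 (4.51%). Without the replicate block it called 3 at t1_25 (5.40%), and with a replicate block within each harvest 4 (3.08%). No source ties the replicate numbers to a shared day or batch. Deviations from group means correlated between WD and control of 1 number within a harvest at 0.024 to 0.416, over 0.1 in 4 of 6 pairs, and between harvests at −0.209 to 0.272, and 7 of 12 libraries correlated best with their own number. Leaving out each library in turn gave 0 to 12 at t1_25, 0 to 2 for the difference of response and 0 to 31 between controls, with 0 to 18.1% of all genes for the last; the upper values came without the first control replicate of t1_25. The cause was not tested. Over all alternatives except the DESeq2 fit, the median fold change of the t2_25-high genes ranged between −0.31 and 0.14 at t1_50 and between −0.33 and 0.46 at t1_25. That of the t2_50-high genes ranged between −0.18 and 0.11 at t1_50 and between −0.10 and 0.25 at t1_25. Depth limits the precision of the 37 t2_25-high and 36 t2_50-high genes under 5 CPM.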
